A study of Sus scrofa with 23 samples.

Results

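HIST1H2AC (ENSSSCG00000023149) and HIST2H2AB (ENSSSCG00000024775) are 2 genes of histone H2A among the 25322 genes counted in pig backfat, of which 11039 passed a filter on low counts over all pigs. The members were selected on these same data: the study listed HIST1H2AC by its difference between group I and group II, and HIST2H2AB by its difference between group I and the other diets together. Differences from group I, and those of HIST1H2AC from group II, are therefore given as descriptions with a standard error and without a test. Both genes passed the filter on low counts in each of the 10 fits, so no member was lost.

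Backfat is the subcutaneous white adipose tissue of the pig. It was taken from 23 crossbred fattening pigs, 12 females and 11 males, that received isoenergetic diets with or without corn dried distillers grains with solubles (cDDGS), a byproduct of alcohol and biofuel production that the deposited labels call DDGS. The methods describe the animals as gilts and castrated males. Group I received -cDDGS+rapeseed oil and held 7 pigs, 4 females and 3 males. Group II received +cDDGS+rapeseed oil and held 6 pigs, 3 of each sex. Group III received +cDDGS+beef tallow and held 5 pigs, 2 females and 3 males, and group IV received +cDDGS+coconut oil and held 5 pigs, 3 females and 2 males. Each pig gave 1 library, so n is the number of pigs. Groups II, III and IV shared cDDGS and differed in the fat source, while groups I and II shared rapeseed oil and differed in cDDGS. The methods state that undegraded RNA was not obtained from this tissue, and ribosomal RNA was therefore removed from total RNA by depletion, without selection of poly(A) transcripts.

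Histone H2A is one of the core proteins of the nucleosome, the particle around which DNA is wound. Most H2A is made from replication-dependent genes, which lie in clusters, have no introns, and are transcribed mainly in S phase, when new DNA has to be packed. Their mRNAs end in a stem-loop in place of a poly(A) tail, so that a library of total RNA keeps them and a library of poly(A) RNA largely loses them. A small number of replication-dependent genes also give polyadenylated transcripts in cells that have left the cycle. Mature adipocytes do not divide, whereas progenitor and immune cells of adipose tissue can. In bulk tissue, fewer cells of a type and less RNA per cell cannot be told apart.

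The names of both genes come from the study's own annotation. The gene table used here held neither identifier, and it gave the present symbols of these genes, H2AC6 and H2AC21, to 2 other identifiers that were not among the counted genes. Replication-dependent H2A genes are near-identical copies of each other, and reads that map to several places are not counted, so the assignment of reads to these 2 members within the family is uncertain. Levels were therefore compared between pigs, and neither gene is said to be the more abundant.

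Between 2437172 and 7979426 reads were assigned to genes in a pig, and the median was 4717511. The members took few of them, with 8 to 90 reads per pig for HIST1H2AC and 5 to 62 for HIST2H2AB. At such counts the counting error alone was wide. The 95% Poisson interval of the lowest HIST1H2AC count, 8 reads in pig 41, ran from 3.45 to 15.8 reads, and that of the highest, 90 reads in pig 19, from 72.4 to 111 reads. These intervals cover counting error only. The adipocyte markers found by name were high in all pigs: the 7 measured genes, among them PLIN1 and LIPE, summed to between 2418 and 4400 CPM, the counts per 1000000 reads in genes.

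The level of HIST1H2AC was lowest in group I and highest in group II. In group I the lowest of the 7 pigs had 3.21 CPM, the median pig 4.52 and the highest 6.23, with a mean of 4.29 ± 1.11 CPM (SD, n = 7). In group II the lowest of the 6 pigs had 5.12 CPM, the median was 10.3 and the highest pig had 23.2, with a mean of 11.9 ± 6.59 CPM (SD, n = 6). All group II pigs but pig 17 stood above the highest pig of group I, which makes 5 of 6. HIST1H2AC was listed by this same contrast, so that count is a description. Within group II the values were spread widely: pig 19 had 23.2 CPM, pig 24 had 14.7, pig 22 had 12.9, pig 20 had 7.77, pig 21 had 7.60 and pig 17 had 5.12.

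In group III (+cDDGS+beef tallow) HIST1H2AC was close to the level of group I. Pigs 41, 46, 45, 43 and 48 had 2.32, 4.84, 5.37, 6.62 and 7.60 CPM, with a mean of 5.35 ± 2.01 CPM (SD, n = 5). The values lay on both sides of those of group I, and 2 of 5 pigs exceeded its highest pig. In group IV (+cDDGS+coconut oil) pigs 53, 55, 52, 54 and 49 had 5.76, 6.48, 6.71, 8.48 and 8.49 CPM, with a mean of 7.18 ± 1.24 CPM (SD, n = 5). Group IV was the tightest of the groups fed cDDGS, and 4 of 5 of its pigs exceeded the highest pig of group I.

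HIST2H2AB was also lowest in group I, and its values in the cDDGS groups lay nearer to each other than those of HIST1H2AC. In group I the lowest pig had 1.45 CPM, the median pig 2.08 and the highest 3.21, with a mean of 2.40 ± 0.679 CPM (SD, n = 7). In group II the lowest pig had 2.53 CPM, the median was 6.63 and the highest pig had 11.8, with a mean of 7.00 ± 3.13 CPM (SD, n = 6). Pig 21 was the one pig of group II that fell within the range of group I, and pig 19 was again the highest.

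In group III the HIST2H2AB level was 3.37, 3.77, 4.75, 4.94 and 9.55 CPM in pigs 46, 41, 48, 45 and 43, with a mean of 5.28 ± 2.48 CPM (SD, n = 5). All 5 pigs exceeded the highest pig of group I, and pig 43 stood far above the other 4. In group IV pigs 53, 54, 55, 49 and 52 had 2.24, 4.54, 4.80, 5.49 and 5.94 CPM, with a mean of 4.60 ± 1.43 CPM (SD, n = 5), and pig 53 was the one pig within the range of group I. Over the 16 pigs that received cDDGS, 14 exceeded the highest group I pig for HIST2H2AB and 11 for HIST1H2AC. The counts of pigs above group I, here and by diet, share group I with the contrasts that chose the genes and are descriptions. The share of all genes with such a separation was not computed.

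**Figure D1:**
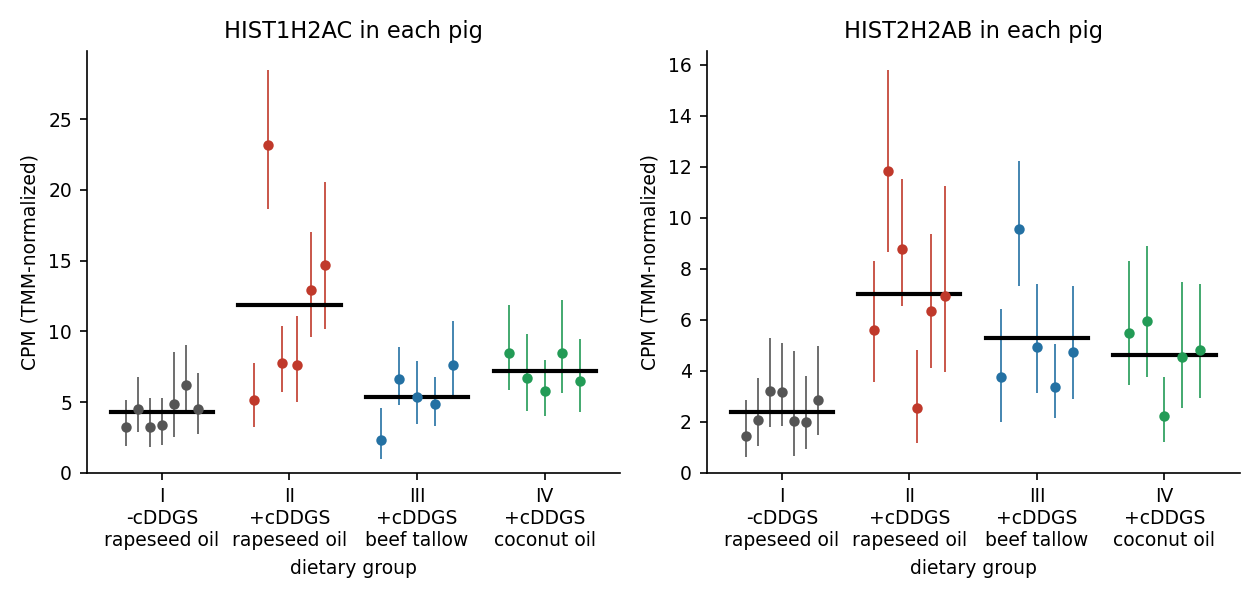
HIST1H2AC (left) and HIST2H2AB (right) in CPM on a linear axis, with 1 point per pig by dietary group, vertical bars for the 95% Poisson counting interval and a black line for the group mean. Pig 19 is the highest point of group II in both panels at 23.2 and 11.8 CPM, and the group I pigs lie between 3.21 and 6.23 CPM for HIST1H2AC and between 1.45 and 3.21 CPM for HIST2H2AB.

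The spread within groups was set against what counting alone would give. In group I the coefficient of variation of HIST1H2AC was 25.8% with 23.7% from counting, and that of HIST2H2AB was 28.2% with 31.1% from counting. Pigs of group I thus differed about as much as reads drawn from equal levels would. In group II the coefficient of variation was 55.5% for HIST1H2AC with 15.5% from counting and 44.7% for HIST2H2AB with 19.5% from counting, so that most of the spread between these pigs was not counting error. In group III it was 37.5% with 19.4% from counting for HIST1H2AC, and 47.0% with 19.4% from counting for HIST2H2AB. In group IV HIST1H2AC had 17.2% with 18.6% from counting and HIST2H2AB 31.1% with 23.4% from counting.

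In the edgeR fits the difference of group II from group I on the log2 scale was 1.50 ± 0.32 (SE) for HIST1H2AC and 1.57 ± 0.31 (SE) for HIST2H2AB, a fold change of 2.82 and 2.97. This contrast chose HIST1H2AC, and the same pigs are part of the contrast of group I with the other diets together that chose HIST2H2AB. Nothing is read from the size of either difference. Over all genes, 3 of 10323 were called at an adjusted p under 0.05 and a fold change above 1.3, which is 0.0291%. At an unadjusted p under 0.05, 6.55% were above their group I level in group II and 6.41% below it.

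The difference of group III from group I was 0.34 ± 0.27 (SE) for HIST1H2AC and 1.15 ± 0.30 (SE) for HIST2H2AB on the log2 scale. The value of HIST1H2AC was 0.20 without pig 48, 0.51 without pig 41 and 0.20 with RIN as a covariate. In that comparison 0% of 10423 genes were called by edgeR, with 4.07% higher and 3.9% lower at an unadjusted p under 0.05, and DESeq2 called 13. The difference of group IV from group I was 0.76 ± 0.21 (SE) for HIST1H2AC and 0.92 ± 0.29 (SE) for HIST2H2AB. Here 0% of 10388 genes were called by edgeR, with 8.22% higher and 5.98% lower at an unadjusted p under 0.05, and DESeq2 called 148. For groups II, III and IV together the difference was 0.97 ± 0.31 (SE) for HIST1H2AC and 1.26 ± 0.29 (SE) for HIST2H2AB. Of 10749 genes 0% were called by edgeR, with 8.69% higher and 7.08% lower at an unadjusted p under 0.05, and DESeq2 called 162. All 4 comparisons share the pigs of group I.

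Whether the fat source mattered among pigs fed cDDGS could be tested where the choice of the genes had not used the contrast. In group III HIST2H2AB differed from its group II level by -0.42 ± 0.36 (SE) on the log2 scale, with an edgeR adjusted p of 0.930 and a 95% interval from -1.19 to 0.35. Between group IV and group II it differed by -0.66 ± 0.35 (SE), with an edgeR adjusted p of 0.979 and an interval from -1.41 to 0.09. Between group IV and group III it differed by -0.23 ± 0.34 (SE), with an edgeR adjusted p of 0.997 and an interval from -0.96 to 0.51. Single pigs moved these values: the difference of group III from group II was -0.77 without pig 43 and -0.19 without pig 19, that of group IV from group II was -0.43 without pig 19, and that of group IV from group III was 0.13 without pig 43. Two-sided exact permutation tests of the pigs gave p = 0.381, 0.212 and 0.643 in this order. In the order of HIST2H2AB levels among these diets, II, III and IV, no neighbours differed beyond the spread between pigs. The intervals are wide, and equal levels were not shown.

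For HIST1H2AC the test was possible for group IV against group III, where the difference was 0.41 ± 0.27 (SE) on the log2 scale with an edgeR adjusted p of 0.997 and a 95% interval from -0.16 to 0.99. The exact permutation test gave p = 0.111, and without pig 41 the difference was 0.25. Relative to group II, HIST1H2AC was lower in group III by a log2 difference of -1.15 ± 0.38 (SE) and in group IV by -0.75 ± 0.34 (SE), given as descriptions. Both rested in part on pig 19, without which they were -0.82 and -0.42. edgeR called 0% of the genes in each of the comparisons of group III with II, IV with II, and IV with III, where 647, 502 and 421 genes had an unadjusted p under 0.05 and DESeq2 called 21, 2 and 0.

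Sex was not used to choose the genes. In group I the mean of HIST1H2AC was 4.02 CPM in 4 females and 4.66 in 3 males, and in group II it was 12.0 CPM in 3 females and 11.8 in 3 males. The difference of males from females within diets was 0.13 ± 0.23 (SE) on the log2 scale for HIST1H2AC, with an edgeR adjusted p of 0.796, and -0.07 ± 0.24 (SE) for HIST2H2AB, with an edgeR adjusted p of 0.909. Exact permutation of sex within diets gave p = 0.236 and p = 0.774. It used log2 levels of single pigs, on which the differences were 0.27 and 0.07, so that of HIST2H2AB had the other sign. Between the sexes 0.842% of all genes were called. Over the 6 exact tests of the members, adjusted p ranged from 0.472 to 0.774.

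The ratio between the genes varied from pig to pig. In a pig, the log2 ratio of HIST2H2AB reads to HIST1H2AC reads averaged -0.85 ± 0.62 (SD, n = 7) for group I and -0.73 ± 0.72 (SD, n = 6) for group II. It averaged -0.02 ± 0.62 (SD, n = 5) for group III and -0.70 ± 0.46 (SD, n = 5) for group IV. Over all pigs it ranged from -1.64 to 0.70. The ratio depends on how reads were assigned within the family, and its difference between groups was not tested. Pig 41, with the lowest HIST1H2AC level of all at 2.32 CPM, had 3.77 CPM of HIST2H2AB, while pig 21, with 7.60 CPM of HIST1H2AC, had 2.53 CPM of HIST2H2AB.

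Within diets, the log2 levels of HIST1H2AC and HIST2H2AB were related by Pearson's r = 0.440 (permutation p = 0.0936, adjusted p = 0.234, n = 23 pigs) and Spearman's rho = 0.176 (permutation p = 0.492, adjusted p = 0.770). The adjustment covers 5 relations, those of the members with each other, with the RNA integrity number (RIN) and with the share of reads outside genes. Without pigs 21 and 43, the farthest from the median, r was 0.353, and without pig 19 it was 0.289. Pig 19 held the highest level of both genes.

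**Figure D2:**
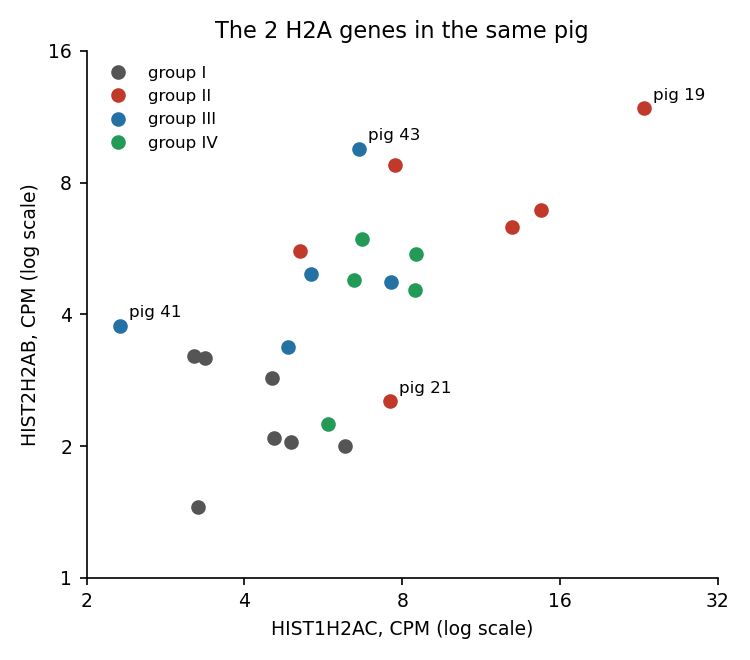
HIST2H2AB against HIST1H2AC in CPM, both on log scales, with 1 point per pig in the colour of its dietary group. Pig 19 lies at the upper right, pig 43 has 9.55 CPM of HIST2H2AB at 6.62 CPM of HIST1H2AC, pig 21 has 2.53 CPM at 7.60 CPM, and pig 41 has 3.77 CPM at 2.32 CPM.

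The libraries differed between diets in the share of reads that fell outside genes, a measure taken from the count files as the reads in no gene over these plus the reads in genes. Group I had a share of 57.1 ± 2.53% (SD, n = 7) and group III of 57.1 ± 3.99% (SD, n = 5). The share was higher for group II, at 62.8 ± 5.77% (SD, n = 6), and for group IV, at 63.2 ± 5.01% (SD, n = 5). By two-sided exact permutation tests it differed from group I with p = 0.0431 for group II, p = 1 for group III and p = 0.00884 for group IV, and the adjusted p over 6 tests was 0.129, 1 and 0.0530. The order of this share, low in groups I and III and high in II and IV, is also the order in which HIST1H2AC was low and high. Its part in the difference was not tested, but with the share as a covariate the difference of HIST1H2AC between groups II and I was 0.95 ± 0.36 (SE) in place of 1.50, and that of HIST2H2AB was 1.62 ± 0.38 (SE) in place of 1.57. For the 3 cDDGS diets together HIST1H2AC was 0.64 ± 0.29 (SE) and HIST2H2AB 1.17 ± 0.31 (SE) higher on this scale.

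Within diets, HIST1H2AC changed by 0.43 ± 0.27 (SE) on the log2 scale for each 10 percentage points of reads outside genes, with an edgeR adjusted p of 0.481, and HIST2H2AB by 0.18 ± 0.30 (SE), with an edgeR adjusted p of 0.827. Without pig 19 these slopes were 0.15 and -0.084. Across all genes 1.65% were called for this slope, and 6.87% were higher and 7.81% lower with the share at an unadjusted p under 0.05. Pearson's r was 0.248 for HIST1H2AC (permutation p = 0.366, adjusted p = 0.610, n = 23) and -0.0075 for HIST2H2AB (permutation p = 0.979, adjusted p = 0.979, n = 23), with Spearman's rho = 0.115 (permutation p = 0.665) and -0.252 (permutation p = 0.316). Without pigs 54 and 21, which lay farthest from the median share, r was 0.356 and 0.306, and without pig 17 that of HIST1H2AC was 0.042. In the same fit 5 of 5 measured liver-type genes were called with a falling slope, and the liver-type genes summed to between 5.25 and 707 CPM in group I and between 6.75 and 5733 CPM in group II. Their correlation with HIST1H2AC within diets ran from -0.407 to -0.0122 and with HIST2H2AB from -0.0510 to 0.288, and their part in the levels of the H2A genes was not tested. No relation with the share was shown for either gene, and the value of HIST2H2AB changed sign with these 2 pigs.

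**Figure D3:**
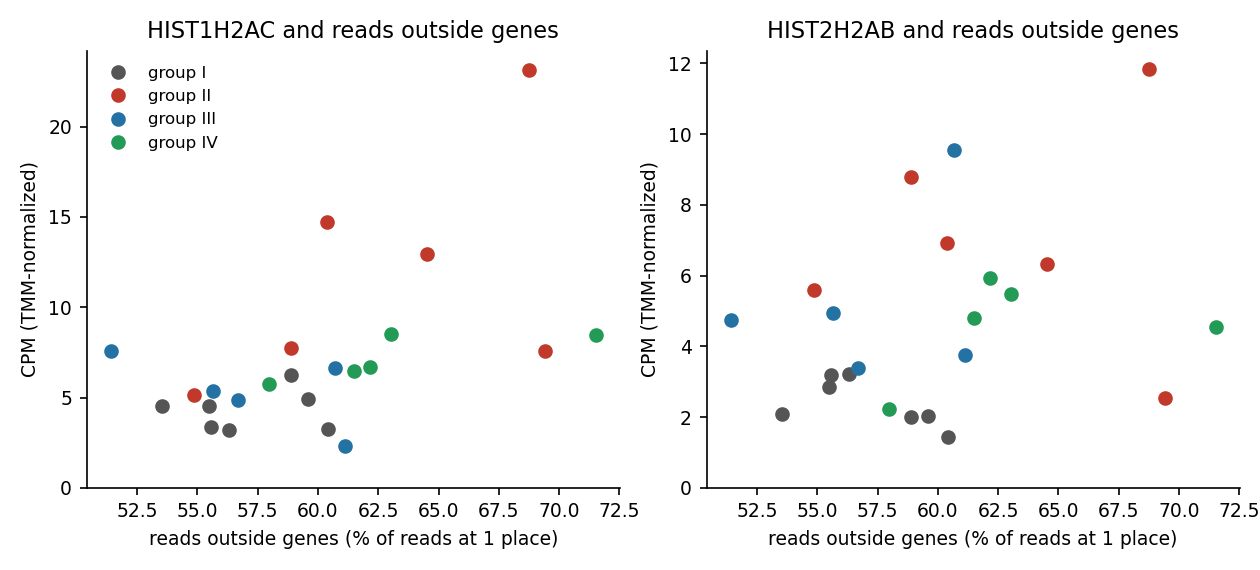
Level of HIST1H2AC (left) and HIST2H2AB (right) in CPM against the percentage of reads outside genes among reads in genes or in no gene, with 1 point per pig in the colour of its dietary group. Pig 19 of group II is the highest point in both panels, and pig 21 of group II, at a share of 69.4%, has 7.60 and 2.53 CPM.

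RIN describes how intact the RNA of a sample was. The relation of HIST2H2AB with RIN within diets was r = 0.509 (permutation p = 0.0190, adjusted p = 0.0950, n = 23) and rho = 0.552 (permutation p = 0.0163, adjusted p = 0.0816), so it did not pass the adjustment over the 5 relations. Without pigs 3 and 43, which had the RIN values farthest from the median, r was 0.382. Within group I alone r was 0.765 (exact permutation p = 0.0452, adjusted p = 0.452 over 10 relations, n = 7) and within group II 0.132 (exact permutation p = 0.819, n = 6). Groups III and IV, with 5 pigs each, were not examined alone. In the edgeR fit HIST2H2AB was higher by 0.36 ± 0.17 (SE) on the log2 scale per unit of RIN, with an adjusted p of 0.617.

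For HIST1H2AC the relation with RIN was r = 0.063 (permutation p = 0.796, adjusted p = 0.979, n = 23), with rho = 0.077 (permutation p = 0.770) and a slope of -0.04 ± 0.18 (SE) per unit of RIN (edgeR adjusted p = 0.964). For RIN 0% of the 11039 genes were called by edgeR, 838 had an unadjusted p under 0.05, and DESeq2 and limma-voom called 0. No difference in RIN between group I and any other group was shown by exact permutation tests, which gave p from 0.311 to 0.499. With RIN as a covariate the difference of HIST2H2AB from group I was 1.52 with rapeseed oil, 0.86 with beef tallow and 0.81 with coconut oil on the log2 scale.

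Other histone genes give the setting of these values. Besides the members, 2 replication-dependent genes could be found by name. H1-3, a linker histone that binds DNA between nucleosomes, averaged 24.7 ± 5.75 CPM (SD, n = 7) without cDDGS, 41.7 ± 21.2 (SD, n = 6) with cDDGS and rapeseed oil, 26.0 ± 6.48 (SD, n = 5) with beef tallow and 23.6 ± 5.25 (SD, n = 5) with coconut oil. It was higher in group II than in group I by 0.77 ± 0.26 (SE) on the log2 scale, with an edgeR unadjusted p of 0.00928 and an adjusted p of 0.263, so it was not called. Its highest pig in group II was pig 17 at 78.1 CPM, the pig that was lowest there for HIST1H2AC. H2BC5, which codes for histone H2B, the partner of H2A in the nucleosome, averaged 12.2 ± 6.15 CPM (SD, n = 7) for group I and 15.6 ± 5.26 (SD, n = 6) for group II, a log2 difference of 0.38 ± 0.30 (SE) with an edgeR adjusted p of 0.600. Within diets the correlation of HIST1H2AC was 0.200 with H1-3 and -0.0386 with H2BC5, and that of HIST2H2AB was 0.287 and 0.289, over the same 23 libraries.

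The replication-independent variants, which are made throughout the cycle and carry poly(A) tails, did not share the order of the members. Of 4 measured variants, 0 stood above and 2 below their group I level in group II at an unadjusted p under 0.05, beside 6.55% and 6.41% of all genes, and edgeR called none of them. H2AZ2, a variant that replaces H2A near transcription start sites, differed by -0.35 ± 0.13 (SE), and MACROH2A1, a variant of H2A with a large extra domain, by -0.28 ± 0.11 (SE), with edgeR adjusted p of 0.279 and 0.304. H3-3A, a variant of histone H3 laid down outside replication, differed by 0.01 ± 0.15 (SE), and H2AZ1 by -0.01 ± 0.31 (SE). The median of these 4 log2 differences was -0.15, beside 0.00 for all genes tested.

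The cell cycle list held 25 names, of which 15 were found and 6 passed the filter for group II against group I. Of these 6 genes 1 was higher at an unadjusted p under 0.05 and none lower, beside 6.55% and 6.41% of all genes. Their median log2 difference was 0.73, beside 0.00 for all genes. Without pig 19 none of the 6 had an unadjusted p under 0.05, edgeR called none of them, and their median was 0.17. The gene was TOP2A, which untangles DNA after replication, with 14.1 ± 4.54 CPM (SD, n = 7) for group I, 27.7 ± 22.6 (SD, n = 6) for group II and a log2 difference of 1.00 ± 0.36 (SE, edgeR adjusted p = 0.274). Pig 19 had 73.3 CPM of TOP2A and the other 5 pigs of group II had 12.8 to 23.1. Without pig 19 the log2 difference of TOP2A was 0.40 ± 0.23 (SE), and with the share of reads outside genes as a covariate it was 0.15 ± 0.35 (SE). Between group III and group II 4 of 7 measured cell cycle genes were lower at an unadjusted p under 0.05, with TOP2A at -1.26 ± 0.47 (SE) and MCM3, a subunit of the replicative helicase, at -1.34 ± 0.51 (SE), and edgeR called none of them. Over all genes 3.43% were lower in that comparison. Without pig 19, 1 of the 7 genes was lower at an unadjusted p under 0.05, MCM4 at -0.84 ± 0.27 (SE). TOP2A, at -0.66 ± 0.32 (SE), and MCM3, at -0.59 ± 0.31 (SE), then no longer passed that threshold. RRM1, a subunit of the enzyme that makes deoxyribonucleotides, differed between groups II and I by 0.24 ± 0.13 (SE), and the cyclin gene CCNE2 by 0.08 ± 0.19 (SE).

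The histone mRNA processing list holds the proteins that cut, protect or remove histone transcripts. For group II against group I 0 of its 9 measured genes were higher and 1 lower at an unadjusted p under 0.05, where 6.55% and 6.41% of all genes were, and without pig 19 none was lower. That count cannot be told from the share over all genes, and edgeR called none of them. NPAT, which activates replication-dependent histone genes in S phase, differed by -0.10 ± 0.13 (SE), CPSF3, the nuclease that cuts histone pre-mRNA, by -0.03 ± 0.09 (SE), the exonuclease gene XRN1 by -0.16 ± 0.10 (SE) and NCBP1, a subunit of the cap-binding complex, by -0.39 ± 0.16 (SE, edgeR adjusted p = 0.341). The median log2 difference of the list was -0.16.

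**Figure D4:**
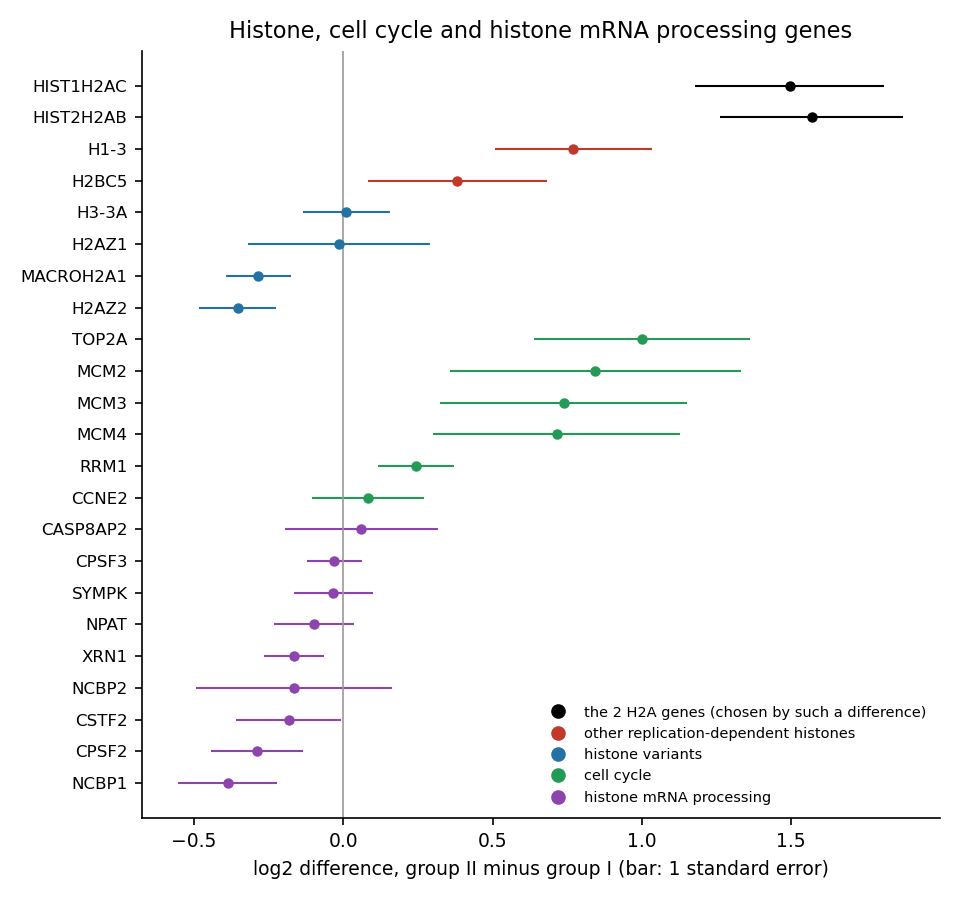
Log2 difference of group II (n = 6) from group I (n = 7) for the 2 H2A genes and for the measured genes of 4 lists, with points for the edgeR estimate and bars for 1 standard error. The H2A genes lie at 1.50 and 1.57, H1-3 at 0.77 and TOP2A at 1.00, and the variants and histone mRNA processing genes lie between -0.39 and 0.06.

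Small RNAs without a poly(A) tail, such as the small nucleolar RNAs that guide the modification of ribosomal RNA, are also kept by depletion of ribosomal RNA. For group II against group I 2 of 21 measured genes of this list were higher and 0 lower at an unadjusted p under 0.05, near the 6.55% and 6.41% of all genes, and edgeR called none of them. These were SNORA2C, at 1.28 ± 0.34 (SE), and SNORD8, at 0.96 ± 0.38 (SE), both small nucleolar RNA genes. The median of the list was 0.29. Within diets the correlation with HIST1H2AC was above 0 for 22 of 25 such genes, with a median of 0.242. For HIST2H2AB it was also above 0 for 22 of 25, with a median of 0.205. Over all genes kept by the filter these medians were -0.0181 and -0.0177, and the share above 0 was not computed. All these genes come from the same libraries and share their depth and RNA quality.

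Markers of other cell types were read in the same comparison. Of 6 fibroblast and progenitor, 4 endothelial, 2 T and NK cell and 1 mast cell genes measured, 0 were higher and 0 lower at an unadjusted p under 0.05. Their median log2 differences were 0.11, 0.05, -0.04 and 0.42 in this order. Without pig 19, 1 fibroblast and progenitor gene and the mast cell gene were higher at that threshold. Of 6 measured macrophage genes 5 were higher in group II than in group I at an unadjusted p under 0.05, among them MRC1 at 1.18 ± 0.32 (SE) and C1QA at 1.51 ± 0.32 (SE) on the log2 scale, and edgeR called none of them. Without pig 19, 3 of the 6 were higher at an unadjusted p under 0.05. The study had itself reported MRC1, C1Q, VSIG4 and C5AR1, which are on the macrophage list, as raised by cDDGS in these same data. The macrophage counts are therefore descriptions. The macrophage genes found by name summed to between 38.0 and 152 CPM in group I, 156 and 329 in group II, 69.1 and 194 in group III and 73.6 and 194 in group IV, and none of them was at 0 in all pigs. Within diets the correlation of the 6 measured macrophage genes with HIST1H2AC ran from -0.189 to 0.192 and with HIST2H2AB from -0.386 to 0.323. Of the 7 adipocyte genes 0 were higher and 2, CIDEC and LIPE, lower in group II at an unadjusted p under 0.05. The shares over all genes were again 6.55% and 6.41%. The other adipocyte genes did not share 1 direction. On the log2 scale PLIN1, PLIN4 and PNPLA2 differed by -0.12, -0.35 and -0.34, and CEBPA and PPARG by 0.25 and 0.33. The part of cell composition in the levels of the H2A genes was not tested.

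The genes whose level was most like that of a member within diets were taken by the highest Pearson's r over the 23 pigs among 11039 genes, for those of the first 5 that had a symbol, 3 for HIST1H2AC and 1 for HIST2H2AB. For HIST1H2AC these were RFC3, a subunit of the clamp loader of DNA replication, at r = 0.767, DNTTIP1 at 0.754 and TRMT1, a tRNA methyltransferase, at 0.697. They rested in part on pig 19, without which r was 0.652, 0.683 and 0.572. TOP2A had r = 0.667 with HIST1H2AC and 0.493 without pig 19, and r = 0.243 with HIST2H2AB. It was the highest of the 8 cell cycle genes kept by the filter for both members. Over these 8 genes r with HIST1H2AC ran from -0.121 to 0.667 with a median of 0.148. With HIST2H2AB it ran from -0.215 to 0.243 with a median of 0.059. For HIST2H2AB the gene was PTPN12, a protein tyrosine phosphatase, at r = 0.762 and at 0.800 without pig 19. HIST2H2AB came 329th among the genes most like HIST1H2AC, and HIST1H2AC 434th among those most like HIST2H2AB.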

How the data were processed

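Gene counts of 23 backfat libraries were used. As the authors describe and the labels list, total RNA depleted of ribosomal RNA (SMARTer Stranded Total RNA kit) was sequenced single-end, reads were mapped with TopHat, and the deposited values are raw counts per Ensembl gene made with HTSeq. The strand setting of the counting is not given in the sources used here, and the study names assembly and annotation versions that leave the build of the gene models open, so no coordinates are given. The 5 HTSeq summary lines, 62.6 to 76.7% of all counts, stayed out of library sizes. Their line for alignments at several places can count a read more than once, so this is not a percentage of reads. The line for reads in no gene gave the share of reads outside genes. RIN was read from the study's sample table and used in fits and correlations only.

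Counts were normalized by TMM, filtered with filterByExpr and tested with edgeR 4.0.16 (glmQLFit, glmQLFTest) in R 4.3.3 on the pigs of the groups compared. Sex and slopes were fitted on all 23 pigs with diet as covariate. A call is a Benjamini-Hochberg adjusted p under 0.05 over all genes and, for groups, a fold change above 1.3. CPM is reads per 1000000 reads in genes after TMM. Single values were tested by exact permutation of pigs, and correlations of diet-centred log2(CPM + 0.5) by 100000 permutations within diets, two-sided. Named genes were the 2 members, the 5 genes most like each (those with a symbol), all measured histones, up to 4 genes of highest CPM per list and a few genes chosen after their values were seen (SNORA2C, SNORD8, CIDEC, CEBPA, PPARG, MCM4). The members and lists were chosen with earlier results of these data known. The scripts were tested on simulated data. No pair of libraries within a group was closer than counting noise. DESeq2 1.42.0 and limma 3.58.1 were alternatives. Per-pig precision is set by counts of 5 to 90 reads.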

Additional observations from a re-analysis of the deposited data

Results flagged for a closer look

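In group III (+cDDGS+beef tallow), pig 43 stood apart from the other 4 pigs for HIST2H2AB. It had 9.55 CPM, against 3.37 to 4.94 CPM in the others, and its gap to the nearest pig was 0.747 of the range of the group, above Dixon's 95% limit of 0.710 for 5 samples. The 95% counting interval of its 62 reads ran from 47.5 to 79.5 reads. It was 1 of 16 groups of values examined, and chance marks about 1 group in 20. The same pig had 6.62 CPM of HIST1H2AC, within the range of its group.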

How the results depend on the processing

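Of 382 alternatives of values with a test, 358 kept direction and side of the threshold. For fits the threshold was that of a call, and for correlations an unadjusted permutation p under 0.05. The lowest edgeR adjusted p of a tested member was 0.481, so staying on 1 side says little about these fits. The 235 alternatives of untested differences kept direction and moved by less than 1 SD between pigs, though HIST1H2AC in group II against group I fell from 1.50 to 0.95 with the share of reads outside genes as a covariate. The 23 that turned in sign were all of differences or slopes whose standard error exceeded them or of correlations near 0. With the share of reads outside genes as a covariate, the RIN slope of HIST1H2AC was 0.056. limma-voom gave 0.026 for HIST2H2AB between groups IV and III. With a pseudocount of 2, the correlation of HIST2H2AB with that share was 0.0186. Leaving out 1 pig at a time gave these ranges: the RIN slope of HIST1H2AC -0.16 to 0.20, HIST2H2AB between groups IV and III -0.37 to 0.13, HIST2H2AB between the sexes -0.18 to 0.14, its slope on the share -0.084 to 0.43, the correlation of HIST1H2AC with RIN -0.136 to 0.297, of HIST2H2AB with the share -0.168 to 0.274 and of HIST2H2AB with RIN 0.426 to 0.741, the lowest without pig 43 (permutation p = 0.0595). The cause was not tested. Without pig 19, HIST1H2AC in group II against group I was 1.17. A minimum of 10 reads in every pig removed the members from some comparisons, which then gave no value. DESeq2 called 84 genes in group II against group I where edgeR called 3 and limma-voom 4; for all cDDGS diets limma-voom called 51, and DESeq2 called 254 against 93 for sex and 338 against 182 for the share of reads outside genes. Counts of 5 to 90 reads per pig limit how small a difference could be seen. The slope of HIST1H2AC on the share ran from 0.15 to 0.61 over single pigs left out. Likeness and gene lists without pig 19 were computed after seeing the data.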
